A study of Mus musculus with 24 samples.

Results

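MicroRNA levels of the teratocarcinoma line PYS were compared with those of the myeloid leukaemia line M1, both mouse. The comparison used every replicate labelled PYS or M1, 3 of each, with the card A and card B runs of a replicate joined, which is 12 of the 24 GEO samples and 6 of the 12 replicates in the series. PYS is labelled a teratocarcinoma cell line, that is, a line from a germ-cell tumour with embryonal parts, and grew as an adherent epithelial-like monolayer. M1 is labelled a myeloid leukaemia cell line and grew as single round cells in suspension. Both were untreated, grown with fetal bovine serum (PYS in Dulbecco's MEM, M1 in a mixture of MEM and Dulbecco's MEM with added amino acids and vitamins) and taken at passage 3, and total RNA was extracted, reverse transcribed and preamplified in the same way. The 3 replicates of a line are of 1 cell line each, and the labels do not say that they came from separate cultures. The p-values thus set a difference only against the spread between replicates, and that spread may be technical. Line, culture medium, growth in suspension or attached, and tumour type go together here and cannot be told apart. The 3 L-1210 replicates, an untreated lymphocytic leukaemia line in suspension at passage 3, served to test whether a difference from PYS depended on M1 being the partner. They and the 3 bone marrow replicates (CT-BM) also entered the fit. The spread behind each SE and p-value was thus estimated over all 12 replicates.

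A microRNA (miRNA) is a short RNA cut from a hairpin precursor that guides Argonaute proteins to partly matching messenger RNAs, mostly through its seed, bases 2 to 8, and lowers their output. Mouse pluripotent cells are rich in miRNAs of the clusters named for miR-290 and miR-302, several of whose members have the same seed, while let-7 accumulates as cells differentiate and its maturation is blocked by LIN28 in embryonic cells. In blood cells miR-142 is made across lineages, miR-223 mainly in myeloid cells, and miR-155 and miR-146a in activated and immune cells.

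The sequences below carry the differences described, and are the mature mouse miRNAs of RefSeq (build GRCm38.p6), 5′ to 3′, with the seed in capitals. Of 517 mouse-named assays 276 were matched to a RefSeq mature miRNA, and of the 317 mouse-named assays tested 198 were matched. The first set is from the miR-290 to miR-295 cluster at chr7:3218626-3220841 and the miR-302 to miR-367 cluster at chr3:127545228-127545807, both higher in PYS, and shows the seed AAGUGCU in 5 of them, the AAGUGCC of miR-290-3p and the AUUGCAC of miR-367.
miR-294-3p: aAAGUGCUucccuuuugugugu
miR-295-3p: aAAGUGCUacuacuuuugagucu
miR-291a-3p: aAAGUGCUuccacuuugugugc
miR-302b-3p: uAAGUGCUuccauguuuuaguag
miR-302d-3p: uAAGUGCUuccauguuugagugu
miR-290a-3p: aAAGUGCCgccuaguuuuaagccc
miR-367-3p: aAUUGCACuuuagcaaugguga
The seed of the miR-17 family, AAAGUGC, is the same stretch set 1 base further in, and its members differed little between the lines, so they are printed for comparison.
miR-17-5p: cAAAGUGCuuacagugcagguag
miR-20a-5p: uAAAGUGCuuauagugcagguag
miR-93-5p: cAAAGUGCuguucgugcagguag
miR-106a-5p: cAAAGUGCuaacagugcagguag
The next set was higher in M1, and pairs with a common seed are miR-146a with miR-146b (GAGAACU) and miR-221 with miR-222 (GCUACAU, neighbours at chrX:19146294-19146971).
miR-223-3p: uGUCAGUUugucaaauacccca
miR-142a-3p: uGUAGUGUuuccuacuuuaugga
miR-155-5p: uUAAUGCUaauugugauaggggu
miR-146a-5p: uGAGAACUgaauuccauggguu
miR-146b-5p: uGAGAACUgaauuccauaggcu
miR-221-3p: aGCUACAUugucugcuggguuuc
miR-222-3p: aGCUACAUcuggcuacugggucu
The last set shows let-7 guides, which were lower in PYS, and neighbours of let-7e at chr17:17830194-17830879, which were higher, with the strands of the miR-30a hairpin, of which 1 differed.
let-7f-5p: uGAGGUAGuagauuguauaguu
let-7e-5p: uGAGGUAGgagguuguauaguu
miR-99b-5p: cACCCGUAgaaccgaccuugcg
miR-125a-5p: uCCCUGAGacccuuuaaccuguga
miR-30a-5p: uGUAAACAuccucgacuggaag
miR-30a-3p: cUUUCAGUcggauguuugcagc

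Each card well gives a threshold cycle (Ct), the PCR cycle at which the product passes a set signal, so a Ct that is lower by 1 stands for 2-fold more template. The PYS and M1 cards held 4491 wells, of which 2315 amplified, from Ct 5.73 to 36.2, and a Ct over 35 or an undetermined well was taken as not detected. The level of an assay is the mean Ct of 3 control RNAs (MammU6, snoRNA135, snoRNA202) of the same card minus the Ct of the assay, on a log2 scale, and a difference is PYS minus M1. These control RNAs did not move together: MammU6 came 2.74 cycles later in PYS than in M1 on card A and 1.56 later on card B, against 1.14 and 0.50 for snoRNA202 and 0.37 and -0.33 for snoRNA135. The MammU6 values of the lines did not overlap on either card, and the part of unequal control RNA in small differences was not tested. With each control or scaling tried, the median difference over all 340 tested assays moved between -0.33 (snoRNA135 alone) and 1.87 (MammU6 alone), from 0.68 with the 3 controls. A plant miRNA assay on both cards, ath-miR159a, gave no product in PYS or M1.

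**Figure D1:**
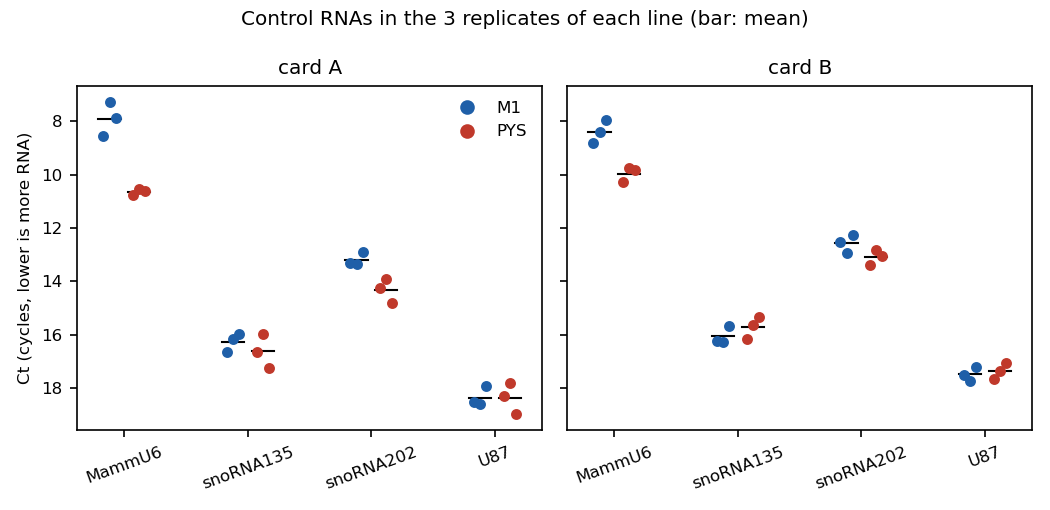
Ct (cycles, axis inverted) of MammU6, snoRNA135, snoRNA202 and U87 in each PYS and M1 replicate on cards A and B, with a bar at the mean of 3. MammU6 separated the lines most, by 2.74 cycles on card A, while U87 differed by 0.00 cycles on card A and -0.12 on card B.

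PYS and M1 had very different miRNA profiles. Some assays lacked a replicate, and detection was counted over the replicates present. Of 584 miRNA assays, 228 were detected in every replicate present of both lines, 79 in every PYS and no M1 replicate and 27 in every M1 and no PYS replicate. Detected in none were 241, and 9 were detected in part of the replicates of a line. The share of assays detected was 53.3%, 54.2% and 53.7% in PYS and 44.7%, 44.3% and 44.8% in M1, a difference of 9.17 percentage points (exact two-sided permutation test, p = 0.10, the smallest that 3 against 3 allows). The 340 assays tested were detected in every replicate present of at least 1 line, with at least 2 replicates present in each line. Of these, 250 (73.5%) differed at a Benjamini-Hochberg adjusted p under 0.05 in limma and by at least 2-fold. In PYS 157 of the 250 (46.2% of those tested) were higher and 93 (27.4%) lower. The groups did not overlap in 247 of the 250, the exceptions being miR-21*, miR-381 and the rat-named miR-207. As calls were picked by p and fold, this count adds no further support. Some assays that did not pass also had no overlap, such as let-7g* (-0.87) and miR-101b (-0.53). For 112 of the 250 at least 1 replicate of the lower line was not detected and the fold is a lower bound, 83 of these being higher in PYS. Every tested assay with such a bound was called. These assays were tested only because the other line was high, so the filter in large part fixed their calls. Among the 228 assays detected in both lines 138 passed, 74 higher and 64 lower.

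Differences were large: 147 of the 250 exceeded 16-fold, and 52 higher and 14 lower assays exceeded 1000-fold. The median SD between replicates over assays detected in both lines was 0.262 in PYS and 0.295 in M1 on the log2 scale. The share of calls that were higher in PYS was 62.8% with the 3 controls and ran from 47.2% with quantile normalization through 48.7% with snoRNA135 alone and 54.4% with the 2 snoRNAs to 76.3% with MammU6 alone, so the balance of higher and lower assays is set by the reference. Called in the same direction under all 7 other references were 176 assays, 111 higher and 65 lower, and no call whose difference exceeded 4.18 in size changed sign under any of them.

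**Figure D2:**
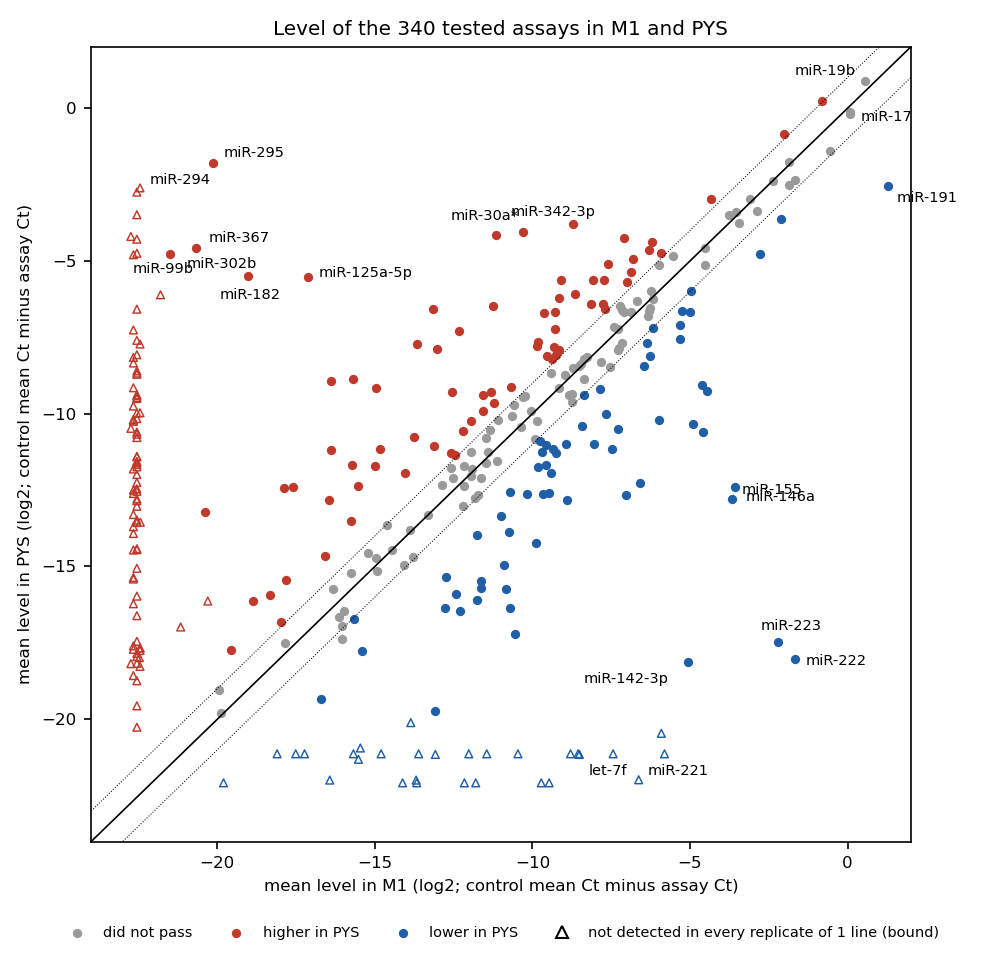
Mean level of each of the 340 tested assays in M1 (x axis) and PYS (y axis), both log2, over 3 replicates or the 2 present; the solid line marks equal levels, dotted lines a 2-fold difference, and open triangles assays not detected in every replicate of 1 line. Stem-cell and miR-99 family miRNAs lie at the upper left, blood-cell miRNAs other than miR-342-3p toward the lower right, and miR-17 and miR-19b near the line. miR-342-3p lies on the PYS-high side.

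The miR-290 to miR-295 cluster, made in embryonic stem cells and the early embryo, had the highest median difference of the 29 lists. All 11 of its tested assays (of 13 on the cards) were higher in PYS, with a median difference of 15.39 beside 0.68 over all assays, and the other two, miR-291a-5p and miR-293*, were detected in neither line. The Ct of miR-294 was 16.78, 16.54 and 16.53 in PYS, and no M1 replicate amplified by cycle 35. That is at least 19.80 on the log2 scale. For miR-292-3p the Ct was 16.78, 15.95 and 16.73 in PYS, and neither M1 replicate present in the table amplified by cycle 35. Its bound was 19.84, and the table holds 2 of its 3 M1 wells. The miR-291a-3p values were 17.72, 16.96 and 17.38 in PYS, and no M1 replicate amplified by cycle 35, a bound of 19.06. Only miR-295, the member with the earliest Ct in PYS, was also detected in M1, at 15.91, 15.39 and 15.69 in PYS and 33.10 and 32.27 in the 2 M1 replicates present. Its difference was 18.34 ± 0.72 (adjusted p = 1.18e-10).

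Within the cluster, the strands spanned a wide range. The bound was 17.80 for miR-293, 15.39 for miR-290-5p, 14.49 for miR-294*, 13.84 for miR-290-3p and 12.41 for miR-292-5p. Lowest were miR-291b-5p (10.93) and miR-291b-3p (4.09), the latter at a mean Ct of 31.49 in PYS. As the assays were not calibrated against each other, a Ct order between assays is not an order of copies. All 11 kept their call under each of the 7 other references.

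The miR-302 to miR-367 cluster, a pluripotency cluster on chromosome 3 whose miR-302b and miR-302d have the seed of miR-294, was also higher in PYS. All 8 of its assays passed, with differences from 6.44 to 16.74 and a median of 14.07, and 8 of 8 were also higher under each of the 7 other references. For miR-302b the Ct was 19, 17.97 and 18.95 in PYS and 33.13 and 34.98 in the 2 M1 replicates present. Both M1 values lay within 2 cycles of the limit, and the difference was 16.74 ± 0.57 (adjusted p = 1.47e-10). miR-367, with the unrelated seed AUUGCAC, had a Ct of 18.57, 17.95 and 18.83 in PYS and 33.05, 33.96 and 32.39 in M1. Its difference was 16.10 ± 0.38, with no overlap. The miR-302a Ct was 20.24, 19.44 and 20.24 in PYS and 33.69 in 1 of 2 M1 replicates, which gives a bound of 15.69. No M1 replicate present amplified miR-302d (at least 15.96) or miR-302c (at least 11.94). The passenger strands miR-302a*, miR-302c* and miR-302b* were also higher, by at least 12.45, 8.20 and 6.44. Over the 21 stem-cell assays together, the summed level, from 2 to the power of each detected level, lay between -0.46 and 0.01 (log2) in the PYS replicates and between -21.12 and -18.38 in M1, where 17 of the 21 were detected in no replicate.

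The miR-17-92 cluster and its paralogs, growth-promoting miRNAs whose miR-17 family seed AAAGUGC is shifted by 1 base from that of miR-294, were near equal and among the earliest Ct of both lines. Of 17 tested assays 3 were higher, 1 lower and 13 did not pass, with a median of 0.32, and the count depended on the reference: MammU6 by itself gave 15 higher and 0 lower, and snoRNA135 by itself 0 and 5. miR-17 had a Ct of 14.39, 13.56 and 14.09 in PYS and 12.80, 12.18 and 12.10 in M1. Its difference was -0.24 ± 0.21 (adjusted p = 0.315), and the near-identical miR-106a gave -0.25 ± 0.20, so these assays may read in part the same RNA. miR-19b, with the lowest mean Ct in PYS and the second lowest in M1, had 13.39, 12.27 and 13.31 in PYS and 12.20, 11.96 and 11.51 in M1 and a difference of 0.32 ± 0.26 (adjusted p = 0.268). The members that passed were miR-18a (1.51 ± 0.26), miR-20a (1.06 ± 0.27), miR-106b* (1.73 ± 0.58) and, lower, miR-93* (-1.03 ± 0.22). The call of miR-20a was lost without PYS replicate 2 (0.94) or M1 replicate 2 (0.88), and that of miR-93* without PYS replicate 1 (-0.92) or 3 (-0.99) or M1 replicate 2 (-0.96).

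**Figure D3:**
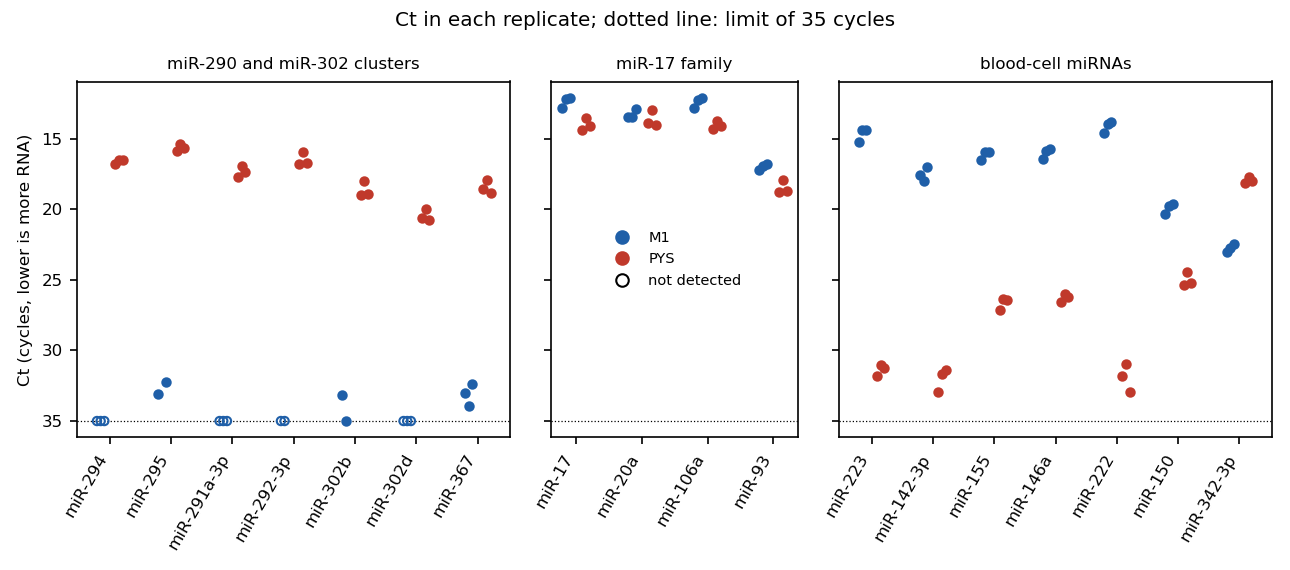
Ct (cycles, axis inverted) in each M1 and PYS replicate for members of the miR-290 and miR-302 clusters, the miR-17 family and blood-cell miRNAs; open circles are replicates not detected and the dotted line is the limit of 35 cycles. The miR-17 family came early in both lines, while miR-294 was detected in PYS alone and miR-223 came at 14.36 to 15.25 in M1 and 31 to 31.81 in PYS.

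Most tested miRNAs of blood cells were lower in PYS than in M1, with miR-342 as the exception. In such bulk RNA, fewer cells of a kind and less RNA per cell cannot be told apart. Of 10 tested assays of the list (miR-223, miR-142, miR-155, miR-146a, miR-146b, miR-150 and miR-342) 8 were lower in PYS and 2 higher, with a median of -8.39, and the same 8 to 2 split was found under each of the 7 other references. The myeloid miR-223 (hairpin at chrX:96242817-96242926) had a Ct of 31.81, 31 and 31.23 in PYS and 15.25, 14.36 and 14.41 in M1. All PYS values lay over 15 cycles later, a difference of -15.26 ± 0.28 (adjusted p = 2.85e-14). miR-142-3p, made in all blood lineages (chr11:87756864-87756927), had 32.95, 31.64 and 31.37 in PYS and 17.57, 17.98 and 17.02 in M1, a difference of -13.05 ± 0.54. No PYS replicate amplified the other strand, miR-142-5p, with a bound of -10.67. miR-155 (chr16:84714140-84714204), needed for immune responses, had 27.14, 26.34 and 26.46 in PYS and 16.49, 15.96 and 15.96 in M1. The difference was -9.10 ± 0.30, with M1 replicates within 0.0303 (SD) of each other on the level scale.

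The NF-kB-induced miR-146a and miR-146b, which share a seed, were both lower in PYS. miR-146a had a Ct of 26.58, 25.98 and 26.21 in PYS and 16.47, 15.86 and 15.73 in M1 and a difference of -8.82 ± 0.27. miR-146b had 23.54, 22.90 and 22.97 in PYS and 17.38, 16.69 and 16.65 in M1 and a difference of -4.82 ± 0.32, and miR-146b* was in M1 alone (-7.96 or beyond). The lymphocyte miRNA miR-150 differed less, -3.69 ± 0.23 (adjusted p = 4.34e-09). miR-342, encoded in an intron of Evl and also made in lymphocytes, went the other way: miR-342-3p had 18.14, 17.70 and 17.97 in PYS and 23.06, 22.76 and 22.48 in M1. Its difference was 6.24 ± 0.25, and miR-342-5p was in PYS alone, by at least 10.80. Over the 5 myeloid and blood assays (miR-223, both strands of miR-142, miR-155 and miR-146a) the summed level was -1.37 to -1.21 in the M1 replicates and -11.90 to -11.06 in PYS. All 5 were lower in PYS, and miR-342 was not among them.

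Other miRNAs known in blood or proliferating cells were M1-high. miR-222, a regulator of the cell-cycle inhibitor p27, had 31.81, 30.96 and 32.92 in PYS and 14.61, 13.94 and 13.84 in M1. Its difference, -16.35 ± 0.36 (adjusted p = 8.82e-14), was the largest decrease among assays detected in both lines, and its neighbour and seed partner miR-221 was in M1 alone (-15.32 or beyond). The miR-181 family, known for lymphoid roles, was lower in 3 of 3 tested assays: miR-181a had 32.99 in 1 of 3 PYS replicates and 18.59, 18.97 and 17.54 in M1. The bounds were -14.55 for miR-181a, -12.36 for miR-181a-1* and -9.68 for miR-181c. miR-149 was in M1 alone, at a Ct of 18.83, 19.28 and 18.81, with 2 PYS wells present and a bound of -15.35. miR-191, the assay with the lowest mean Ct in M1, had 16.74, 16.02 and 16.47 in PYS and 11.59, 10.97 and 10.97 in M1, a difference of -3.82 ± 0.27, and its cluster partner miR-425 (chr9:108568319-108568861) gave -1.68. The Hox-cluster miR-196b, active in myeloid leukaemia with MLL fusions, was lower (-5.41 ± 0.46), and miR-10a was in M1 alone, -5.45 or beyond. Of the tumour-linked miR-21 and miR-29 assays 5 of 8 were lower and none passed higher with the 3 controls, led by miR-29a (-5.99 ± 0.20), with miR-29b at -3.47 and miR-29c at -1.85; with MammU6 alone 1 was higher and 3 lower.

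The let-7 family, which marks differentiated cells and represses growth genes such as Hmga2, was lower in PYS. Of 13 tested assays 11 were lower, 1 was higher and 1 did not pass, with a median of -4.35; with MammU6 alone 9 were lower, and let-7c-1* was the higher one under every reference. let-7f was not amplified in PYS: its Ct was 19.98, 20.10 and 19.62 in M1, a bound of -13.69. let-7a likewise was in M1 alone, -12.58 or beyond with 2 M1 replicates present, and let-7d* and let-7i* gave bounds of -9.91 and -8.29, the latter with 2 PYS replicates present. Other guides were detected in both lines, as in let-7i, with a Ct of 26.36, 25.04 and 26.98 in PYS and 19.42, 18.96 and 18.79 in M1. Its difference was -5.65 ± 0.36, followed by let-7g (-5.61 ± 0.24), let-7e (-4.23 ± 0.43) and let-7d (-3.89 ± 0.35). let-7b (-2.24 ± 0.71) and let-7c (-1.99 ± 0.46) differed least among the 8 guides with the common seed GAGGUAG, all of which were lower.

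The miR-99, miR-100 and miR-125 families, made from the same loci as some let-7 genes and known from haematopoietic stem cells and stroma, went the opposite way. All 7 tested assays were higher in PYS, with a median of 11.59, and 7 of 7 were also higher under each other reference. At chr17:17830194-17830879, where Mir99b, Mirlet7e and Mir125a lie in that order on the plus strand, miR-99b had a Ct of 18.30, 17.74 and 18.44 in PYS, and no M1 replicate amplified by cycle 35. Its bound was 18.25. miR-125a-5p had 19.58, 18.97 and 19.65 in PYS and 29.13, 30.98 and 28.61 in M1, a difference of 11.59 ± 0.82. Between them lies let-7e, which was lower in PYS at 24.35, 23.61 and 24.26 in PYS and 17.68, 18.99 and 18.62 in M1. At chr16:77598936-77599750 miR-99a was higher by at least 11.87 beside let-7c at -1.99, and at chr9:41531425-41536811 miR-100 was higher by at least 12.38 beside let-7a at -12.58 or beyond. let-7c and let-7a each have a second gene elsewhere with the same mature RNA, so these pairs are less direct than the one on chromosome 17, where let-7e has 1 gene. The other strand of the chromosome 16 let-7c hairpin, let-7c-1*, has 1 gene and went with miR-99a, higher in PYS by at least 5.06. In contrast, at chr13:48536012-48538272, which holds Mirlet7d, Mirlet7f-1 and Mirlet7a-1, all 5 tested assays were lower. Of these, let-7f, let-7a and let-7a* also have a second gene elsewhere, and let-7d and let-7d* have 1 gene.

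Of the sensory and epithelial miRNAs, those of the miR-183 cluster were higher in PYS and the others were mixed. The miR-183 cluster (chr6:30165918-30169737), co-transcribed in sensory cells and many epithelial tumours, was higher in 4 of 4 assays under every reference. miR-182 had a Ct of 19.91, 18.59 and 19.57 in PYS and 31.96, 31.96 and 30.48 in M1, a difference of 13.52 ± 0.36. miR-183*, miR-183 and miR-96 were in PYS alone, by at least 17.85, 13.05 and 10.08. The epithelial miR-200 family, which holds back ZEB factors, was mixed, PYS being labelled epithelial-like: 2 of 8 tested were higher, 2 lower and 4 did not pass, and with MammU6 alone 6 were higher and 1 lower. miR-200c was lower in PYS, at 25.74, 24.96 and 25.91 in PYS and 22.36, 21.83 and 21.86 in M1 (-2.10 ± 0.25; -0.78 with MammU6 alone, which ends the call). miR-141 was in M1 alone (-5.48 or beyond, 2 PYS replicates present) and its passenger miR-141* in PYS alone (at least 10.15). The summed level of the 9 assays was -8.55 to -8.23 in PYS and -8.57 to -8.03 in M1. Of 5 other epithelial and islet assays, miR-31 (5.19 ± 0.30), miR-375 (3.70 ± 0.31), miR-31* (at least 8.73) and miR-205 (at least 3.81) were higher in PYS, and miR-203, a skin miRNA, was in M1 alone (-3.90 or beyond).

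Neighbouring miRNAs near Gnas and on the X chromosome also moved together. miR-296-5p, from an imprinted locus near Gnas (chr2:174267047-174267585), had 18.35, 17.12 and 18.75 in PYS, and neither M1 replicate present in the table amplified by cycle 35. The bound was 18.53, with 14.94 for its neighbour miR-298 and 13.08 for the other strand. miR-193* (7.47 ± 0.38) and miR-365 (6.58 ± 0.23) were among the 12 largest increases detected in both lines, as was miR-135a* (5.94 ± 0.42). On the X chromosome the miR-532 and miR-188 cluster (chrX:7237683-7248497) was higher in 7 of 7 tested assays, led by miR-501-3p (at least 14.73, 2 M1 replicates present) and miR-501-5p (at least 9.36), with 2.99 for miR-362-3p and 2.95 for miR-532-3p; 4 of the 7 passed with snoRNA135 alone, both snoRNAs or quantile normalization, and none was lower. The X-linked cluster of miR-322, miR-503 and miR-351 (chrX:53048154-53054349 for those within 10 kb of each other), growth-arrest miRNAs of muscle differentiation, went the other way, with 7 of 8 lower (5 with MammU6 alone) and a median of -3.63. miR-322* had 30.53, 28.23 and 29.06 in PYS and 23.28, 23.28 and 22.59 in M1 (-5.64 ± 0.42), and miR-351 was in M1 alone by the mouse assay, -12.34 or beyond. miR-449a and miR-449c, cell-cycle brakes of ciliated cells (chr13:113035983-113037624), were also lower, -3.84 and -4.05.

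Across the genome, 38 groups of 2 or more hairpins within 10 kb of each other held tested assays; these groups were formed after the values were known, and assays with several gene copies were counted at each. In 28 of them calls ran in 1 direction only, in 8 in both directions, and in 2 no assay passed. Several of the 28 held only 1 called assay, where no other outcome was possible, and both strands of a hairpin were counted. The 28 are therefore not a count of neighbours that went the same way. At chr11:70234717-70235135, which holds Mir497 and Mir195, miR-497 was higher by at least 13.17 and miR-195 did not pass (0.26 ± 0.26), although both have the seed AGCAGCA. Of the 6 tested miRNAs with that seed, which includes the cell-cycle regulators miR-15 and miR-16, 1 was higher and 1, miR-322, lower.

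Of 65 assays of the Dlk1-Dio3 locus, a large imprinted cluster on chromosome 12 that is active in pluripotent cells, 51 were not tested, all of them detected in neither line, and of 14 tested 7 were higher and 4 lower with the 3 controls but 0 and 7 with quantile normalization. These are mouse-named assays, and their strongest values were in M1, with miR-667 and miR-673-5p at -12.64 (2 replicates present in each line) and -12.61 or beyond. Those higher in PYS came late, such as miR-411 (mean Ct 32.05) and miR-434-3p (32.04). The rat-named assay of miR-381, a miRNA of this locus, differed from that. Its mean Ct was 24.35 in PYS, with a bound of 12.26, against 4.17 by the mouse-named assay. Of the Sfmbt2 locus, an intronic cluster of the trophoblast, 15 of 18 assays were detected in neither line and 3 were lower, with differences from -2.44 to -1.52; with MammU6 alone 1 was lower. Of 23 assays of the X-linked germline cluster 8 were tested, with 2 higher, miR-741 and miR-881, and 3 lower, led by miR-509-3p (-8.07 or beyond) and miR-547 (-6.67 ± 0.31); quantile normalization gave 1 higher and 6 lower. Of these 4, miR-509-3p and miR-881 had 2 replicates present in each line, and miR-547 and miR-741 had 2 in PYS.

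**Figure D4:**
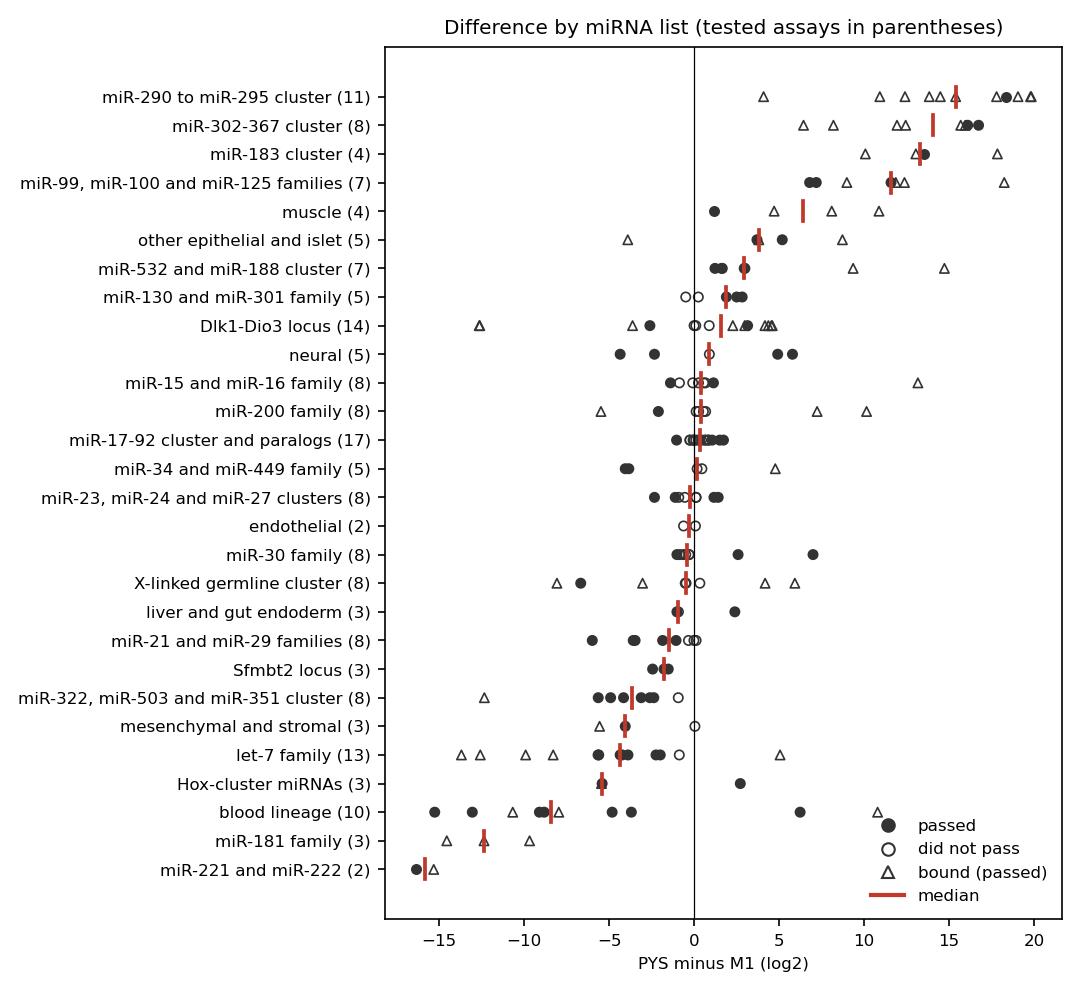
PYS minus M1 difference (log2) of each tested assay in 28 lists, ordered by median (red bar), with filled circles for assays that passed, open circles for those that did not and triangles for bounds; the number tested stands after each list name. The medians run from -15.84 for miR-221 and miR-222 to 15.39 for the miR-290 to miR-295 cluster.

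Markers of other cell types differed in how early they came. The liver miR-122 and the neuronal miR-124 were detected in neither line, nor were the mesenchymal miR-143, miR-199a-5p and miR-214. miR-199a-3p was lower in PYS (-4.05 ± 0.36), and miR-145 did not pass (0.05 ± 0.32, with -3.03 under quantile normalization and 1.15 with MammU6 alone). The muscle assays miR-499, miR-133a, miR-1 and miR-206 were higher in PYS, at least 10.88, 8.10 and 4.71 for the first 3 and 1.16 ± 0.40 for miR-206, whose call was lost under 4 of the 7 other references and without PYS replicate 1 (1.10), PYS replicate 3 (1.03) or M1 replicate 2 (0.89), and turned with quantile normalization (-3.15). Their mean Ct in PYS ran from 25.53 for miR-499 to 31.71 for miR-1. The erythroid miR-451 had 27.56, 26.74 and 27.97 in PYS and 34.99 in 1 of 2 M1 replicates, while miR-486 was in neither line. The endothelial miR-126-3p, with a Ct of 19.29, 18.61 and 19.14 in PYS and 17.47, 16.87 and 16.61 in M1, did not pass (-0.62 ± 0.22), nor did miR-126-5p (0.08 ± 0.20). The neural miR-138 had a Ct of 17.96, 17.29 and 17.74 in PYS and 21.61, 20.95 and 20.93 in M1 and a difference of 4.92 ± 0.24, and miR-9 was lower in PYS (-2.33 ± 0.54, which did not pass with MammU6 alone).

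The counts of further lists are given here, and several of them depended on the reference. Beside them stand 46.2% higher and 27.4% lower over all 340 tested assays, so a count near these shares is not particular to its list. Of 8 tested assays for miR-15, miR-16 and their relatives 2 were higher and 1 lower, against 6 and 0 with MammU6 alone; of 8 for miR-23a, miR-24, miR-27a and their copies 2 were higher and 2 lower, against 0 and 4 with snoRNA135 alone. Of 8 miR-30 assays 2 were higher and 1 lower, against 2 and 6 with snoRNA135 alone, and of 5 of the miR-130 and miR-301 family, known in proliferating cells, 3 were higher, against 2 higher and 1 lower with snoRNA135 alone. Of 3 tested assays each, the Hox-cluster list had 1 higher and 2 lower (0 and 3 with quantile normalization), the liver and gut list 1 and 1 (1 and 0 with MammU6 alone, 1 and 2 with snoRNA135 alone), and the mesenchymal list 0 and 2. Of 5 tested each, the neural list had 2 higher and 2 lower, the list of other epithelial and islet miRNAs 4 and 1, and the miR-34 and miR-449 family 1 and 2 (3 and 2 with MammU6 alone).

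Where both were detected in both lines, the strands of a hairpin mostly went the same way. Of 45 hairpins with both strands detected in both lines, 31 had differences of the same sign, and among the 15 with both strands called 13 did; the median size of the difference between strands was 1.53. Hairpins with a strand missing in a line were left out, such as miR-141 (-5.48 or beyond) with miR-141* (at least 10.15). Among the 45, miR-30a was the largest exception. The miR-30a guide had a Ct of 20.60, 19.79 and 20.85 in PYS and 19, 18.94 and 18.20 in M1 and did not pass (-0.29 ± 0.28). Its other strand miR-30a* had 17.46, 16.69 and 17.06 in PYS and 23.65, 23.82 and 23 in M1 and was higher in PYS by 7 ± 0.22 (adjusted p = 2.47e-12). In PYS the Ct of miR-30a* was thus earlier than that of miR-30a, and in M1 later. let-7g was lower (-5.61 ± 0.24) and let-7g* did not pass (-0.87 ± 0.26), and miR-503* was lower (-4.91 ± 0.32) while miR-503 did not pass (-0.93 ± 0.29). miR-7a was higher and miR-7a* lower, 2.06 ± 0.23 and -1.85 ± 0.24, but these strands can come from different miR-7 genes.

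Of 67 assays named for rat miRNAs, 23 were tested, with 10 higher and 7 lower. Over all 340 tested assays 46.2% were higher and 27.4% lower, so these counts are near the general share. Of the 23, 10 had a tested mouse assay of the same name. For miR-224 the differences were 9.76 by the mouse and 9.69 by the rat assay, both bounds, and for miR-1 they were 4.71 and 5.10. The pair disagreed for miR-351, with a bound of -12.34 by the mouse and -3.14 by the rat assay, for miR-381, with 4.17 and 12.26, and for miR-28*, with 2.91 and 10.05, so the sizes for these 3 depend on the assay.

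Whether a difference from PYS was shared with the other leukaemia line was tested as M1 minus L-1210, which equals the difference between the comparisons of PYS with each. This contrast passed in 171 of 304 assays (56.2%), and of the 250 assays that differed between PYS and M1 it passed in 109 of the 194 tested for both. The M1-high miR-223, miR-221, miR-222, miR-196b and miR-351 were among those that passed, with M1 above L-1210 by 10.13 ± 0.28, at least 15.38, 14.24 ± 0.36, 13.97 ± 0.46 and at least 12.40. It did not pass for miR-155 (0.02 ± 0.30), miR-142-3p (-1.08 ± 0.55), let-7f (-0.06 ± 0.37) or miR-29a (0.64 ± 0.19), and an approximate interval is 2 SE either way. Of the assays higher in PYS, miR-31, miR-365 and miR-501-3p were lower in M1 than in L-1210 (-11.34 ± 0.30, -5.57 ± 0.23 and -12.70 or beyond). Among the stem-cell assays, 5 of 19 tested against M1 could also be tested between the leukaemia lines, and 2 passed, miR-292-3p and miR-302a, with M1 below L-1210 at -3.15 and -1.84 or beyond.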

How the data were processed

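Total RNA of 3 PYS and 3 M1 replicates was run on the rodent TaqMan array cards (A and B), over 40 cycles per the labels. The 1 table the authors deposited holds Ct per well, in PCR cycles and not normalized, and a Ct Avg per its header, which equalled the mean of an assay's wells within 0.001 in 3543 of 3543 values. The labels name mirVana extraction, preamplification and the 3 control RNAs; software and detection limit are not given in the sources used here. The cards held 370 to 380 wells each of 384, and 48.5% of PYS and M1 wells were undetermined. Repeat wells (median SD 0.105 cycles over 427 sets) were averaged, and a replicate counted as detected if most of its wells amplified by cycle 35, otherwise it was set to 35. No read depth applies, and the number of replicates limits the precision.

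Levels, the mean Ct of the 3 controls on the same card minus the assay Ct, were fitted by lmFit and eBayes of limma 3.58.1 (R 4.3.3) on all 12 replicates with 4 group means. Of the 340 assays tested, 45 lacked a replicate, which was left out of the fit. Tables used Python 3.11.15, pandas 2.3.3, numpy 2.4.6 and SciPy 1.17.1; figures matplotlib 3.10.9. The fit was tested on simulated data in which every value counted as detected and no replicate was missing. That test does not cover bounds or assays that lacked a replicate. The members, 29 lists and naming rule were chosen with earlier results of these data known. The rule named the 12 largest changes each way detected in both lines, the 6 largest bounds each way, in each list up to 4 members with the largest moderated t, all tested members of the 2 stem-cell clusters and the blood list, the 5 lowest mean Ct in each line, the 3 hairpins whose strands differed most and the 4 lowest Ct with a change under 1.5-fold; the text gives a selection. miR-425, miR-298, miR-296-3p, miR-195, miR-7a, miR-7a*, miR-21*, miR-203, miR-381, let-7b to let-7e, let-7c-1* and the rat-named assays were picked with their values in view. As alternatives served other references, Ct limits, filters, fits and thresholds, each card alone, a replicate block and leaving out each replicate. Hairpin positions and sequences came from RefSeq tables of GRCm38.p6.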

Additional observations from a re-analysis of the deposited data

How the results depend on the processing

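Beside the 250 calls with all replicates, there were 232 to 238 when 1 replicate was left out (139 to 154 higher, 84 to 93 lower), and 250 with a replicate block, which were the same 250 assays in the same direction; deviations of same-numbered PYS and M1 replicates correlated at 0.028, -0.106 and -0.114 over 215 assays, so the numbers were not taken as pairs. No filter gave 401 calls (308 higher), only assays detected in both lines 138 (74 higher), card A alone 61 lower, and card B alone 81 (49 higher, 32 lower), in part because fewer or more assays were tested. With no filter the lower calls stayed at 93. An assay set to 35 in both lines takes the control difference of its card as its value, 1.41 on card A and 0.58 on card B. The card A value exceeds 2-fold, so a call of such an assay says nothing about its miRNA. Between M1 and L-1210 the 171 calls became 348 with no filter, 103 with detection in both lines, 110 on card A and 61 on card B, and 154 to 170 without 1 replicate. At a Ct limit of 32 the detected share was 52.0% in PYS and 43.4% in M1, and without 1 replicate it was 53.5% to 54.0% and 44.5% to 44.8%. Of 142 named assays, 101 kept direction and call under every alternative run on them; 12 values of the other 41 reversed. MammU6 alone gave 1.07 for miR-106a, 1.09 for miR-17, 0.31 for miR-192, 0.22 for miR-23b and 0.32 for miR-30e. Quantile normalization gave -1.07 for miR-126-5p, -2.56 for miR-130a, -3.03 for miR-145, -2.14 for miR-196a*, -3.15 for miR-206, -3.16 for miR-215 and -1.13 for miR-34b-3p; the cause was not tested. The U87 reference and the alternatives for M1 against L-1210 were added after seeing the data. Differences at late Ct, and bounds, are limited by the 35-cycle limit.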

Other observations

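miRNAs in none of the 29 lists made up 110 of the 250 calls, 80 higher and 30 lower in PYS, and those named here were chosen after their values were seen. Both strands of miR-335, from an intron of the imprinted Mest gene, were in PYS alone (at least 10.56 and 12.56), as were both strands of miR-455 (at least 10.99 and 12.91), which lies in the collagen gene Col27a1, and both of miR-330 (at least 8.13 and 12.45). miR-148a and miR-152, which have the same seed, CAGUGCA, and are known to target Dnmt1, were in PYS alone, by at least 11.14 and 13.94. miR-22 had a Ct of 21.12, 20.93 and 20.35 in PYS and 25.50, 25.77 and 24.82 in M1 (5.14 ± 0.27), and miR-22* was in PYS alone. miR-582-3p and miR-582-5p were in M1 alone (-9.11 and -6.33 or beyond).

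miR-301a and miR-301b, growth-linked miRNAs, were higher in PYS under each of the 8 references, from 1.46 to 4.16, while miR-24, with a Ct of 15.97, 15.16 and 15.73 in PYS and 14.65, 14.36 and 13.97 in M1, did not pass (0.12 ± 0.21).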
